A study of Homo sapiens with 4 samples.

Results

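The ubiquitin-conjugating enzymes (E2s) and the ubiquitin-specific proteases (USPs) are followed here as 1 set of genes chosen by name. The rule takes every symbol that begins with UBE, or with USP and a digit, and leaves out UBE2C. It finds 61 of the 8727 genes in the authors' deposited table. They are 20 protein-coding UBE2 genes (the E2 group), 33 protein-coding USP genes (the USP group), 4 UBE3 or UBE4 genes, 3 pseudogene names and USP6NL, whose symbol matches although it encodes a regulator of Rab GTPases and not a protease. The study compared 2 libraries of HepG2 cells, a human liver cancer line, given 20 µM isoginkgetin for 24 h with 2 libraries of HepG2 cells given the solvent DMSO. Isoginkgetin, a biflavonoid from plants, is best known for blocking pre-mRNA splicing, and polyadenylated RNA was sequenced without strand information. Of 8 hepatocyte markers 7 are in the authors' deposited table, with mean normalized counts of 442 to 157429. All 7 were lower, with log2 fold changes of −1.04 to −0.21. Of all tested genes 43.6% are in that table, and 48.5% of its genes were lower. The part of these markers in the results below was not tested.

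The table holds 1 value per gene for the whole comparison: the normalized count averaged over libraries, the log2 fold change, its standard error (SE) and an adjusted p. Values per library, and with them depths and overlaps between single libraries, are not analysed here. The header does not name the numerator, so "higher" means a positive value, taken as isoginkgetin over DMSO, and every direction would turn if the order were the other. Every gene in the table has an adjusted p under 0.05. Membership thus rests on that p-value as well as on the name, and the directions and sizes below are descriptions with no further test. In bulk RNA, fewer cells that make a transcript and less of it per cell cannot be told apart. Separate cultures are not stated for the replicates, so the p-values cover only the spread among these libraries.

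Ubiquitin is activated by an E1 enzyme, passed to the active-site cysteine of an E2 and then joined to a substrate with the help of an E3 ligase. Repeated rounds build chains whose linkage sets the outcome, such as destruction by the proteasome or assembly of a signalling complex. Deubiquitinases cut ubiquitin off again, and the USPs are their largest human family. E2 proteins are mostly small and consist of little more than the catalytic fold, whereas USPs carry long extensions around theirs.

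Both groups leaned towards higher values. By the authors' deposited table, 16 of 20 E2 genes (80.0%) and 24 of 33 USP genes (72.7%) were higher, against 4493 of all 8727 genes (51.5%). The median log2 fold change was 0.43 in the E2 group and 0.31 in the USP group, against 0.21 over the table. Among the 7082 table genes with a mean normalized count of at least 100, 49.9% were higher and the median was −0.15. No value in the table lies nearer 0 than 0.117, so the median of the table can change sign with the genes kept. Of all 20024 genes that the authors' p-values imply were tested, 22.4% were higher and 21.1% lower at an adjusted p under 0.05. RefSeq names 34 protein-coding UBE2 genes and 51 USP genes, without UBE2C, 1 pseudogene-type name and the 25 USP17L copies. The 20 E2 genes in the table are 58.8% of that number and the 33 USP genes 64.7%, while 43.6% of all tested genes are in the table. How many of the other 14 and 18 were tested is not known, and they have no value or direction here.

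Most members were higher in both groups, and the USP values covered the wider range. The USP group is also the larger one. Its median mean normalized count was 949 and its median SE 0.11, against 1802 and 0.085 in the E2 group. The difference in the share of higher genes, E2 minus USP, was 7.27 percentage points. E2 values ran from −0.74 to 0.91 and had quartiles of 0.21 and 0.57 on the log2 scale. USP values ran from −1.78 to 1.47, with quartiles of −0.26 and 0.62. No E2 gene changed by 2-fold or more, against 5 of 33 USP genes (15.2%). Of these 5, 3 were higher, among them USP50 with a mean normalized count of only 34.2, and 2 were lower. Of the table genes 31.4% changed by 2-fold or more, or 20.4% of those with a mean normalized count of at least 100. Over all genes tested, 6.26% were in the table as 2-fold or more higher and 7.43% as lower. The median size of change, whatever its direction, was 0.47 in the E2 group and 0.47 in the USP group, below the 0.61 of table genes with a mean normalized count of at least 100. Whether the shares or the spread of the E2 and USP groups differ was not tested.

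**Figure D1:**
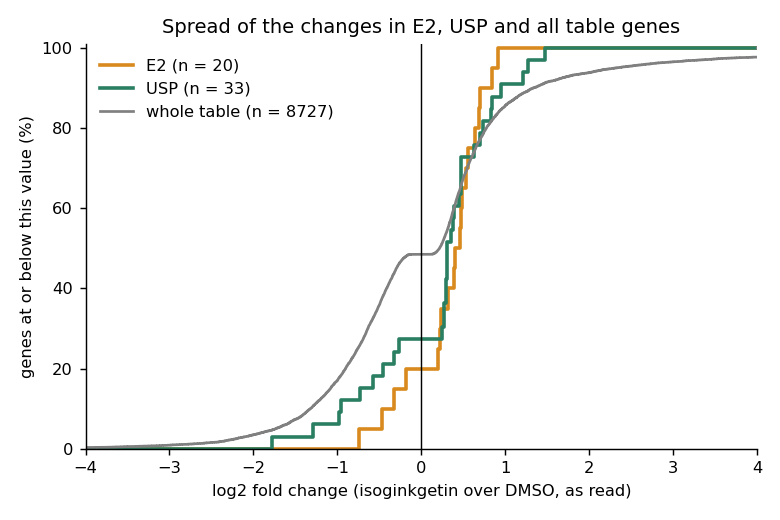
Cumulative share of genes (%) by log2 fold change (taken as isoginkgetin over DMSO) for the 20 E2 genes, the 33 USP genes and all 8727 table genes, with the x axis limited to −4 to 4. The E2 curve spans the narrowest range, −0.74 to 0.91, and 20% of the E2 genes and 27.3% of the USP genes lie left of 0, against 48.5% of the table.

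The ends of the groups are held by UBE2J1 and UBE2T among the E2s and by USP36 and USP40 among the USPs. USP36, the nucleolar deubiquitinase of ribosome production, was at 1.47 on the log2 scale (SE 0.06, adjusted p 1.67e-124 per the authors' deposited table), a 2.78-fold increase at a mean normalized count of 4706. Its p-value ranked 46 of 8727. USP40 stood at −1.78 (SE 0.10, adjusted p 3.73e-76 per the authors' deposited table), 3.43-fold lower at a mean normalized count of 1535. UBE2J1, an E2 anchored in the membrane of the endoplasmic reticulum (ER), was at 0.91 (SE 0.08, adjusted p 3.90e-28, mean normalized count 1983 per the authors' deposited table). UBE2T, the E2 of the Fanconi anaemia pathway, was at −0.74 (SE 0.15, adjusted p 8.46e-07, mean normalized count 503 per the authors' deposited table). At the threshold of the table lie UBE2R2 (adjusted p 0.0497) and USP4 (adjusted p 0.0489) on the authors' deposited scale, and no gene outside it has a value.

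The promoter windows of these 4 genes, 250 bases before to 50 after the start in RefSeq (GRCh38.p14), are shown because they carry the largest change in each direction of their group. Capitals mark matches on either strand to TGACGT, the core bound by the ATF and CREB factors, TGACNNNGC, the antioxidant response element, CACGTG, the E-box, or CCAAT, the CCAAT box.
UBE2J1, chr6:89352673-89352972, minus strand: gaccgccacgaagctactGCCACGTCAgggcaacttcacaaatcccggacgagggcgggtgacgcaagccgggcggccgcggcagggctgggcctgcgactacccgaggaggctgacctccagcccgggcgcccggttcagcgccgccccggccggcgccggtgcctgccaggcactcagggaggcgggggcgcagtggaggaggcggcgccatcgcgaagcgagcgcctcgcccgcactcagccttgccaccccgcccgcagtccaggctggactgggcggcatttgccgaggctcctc
UBE2T, chr1:202341887-202342186, minus strand: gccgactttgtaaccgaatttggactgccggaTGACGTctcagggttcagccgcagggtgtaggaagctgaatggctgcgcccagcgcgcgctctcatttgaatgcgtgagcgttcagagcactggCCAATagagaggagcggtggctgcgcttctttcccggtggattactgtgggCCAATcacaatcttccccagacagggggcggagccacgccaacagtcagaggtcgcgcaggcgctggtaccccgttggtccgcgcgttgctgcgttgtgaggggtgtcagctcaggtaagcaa
USP36, chr17:78840765-78841064, minus strand: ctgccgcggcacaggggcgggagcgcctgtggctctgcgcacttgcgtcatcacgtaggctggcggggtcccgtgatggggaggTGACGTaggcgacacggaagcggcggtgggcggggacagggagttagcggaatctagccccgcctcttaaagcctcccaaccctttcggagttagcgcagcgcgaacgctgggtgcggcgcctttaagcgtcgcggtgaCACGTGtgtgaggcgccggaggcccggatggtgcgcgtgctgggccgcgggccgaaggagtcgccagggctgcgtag
USP40, chr2:233566733-233567032, minus strand: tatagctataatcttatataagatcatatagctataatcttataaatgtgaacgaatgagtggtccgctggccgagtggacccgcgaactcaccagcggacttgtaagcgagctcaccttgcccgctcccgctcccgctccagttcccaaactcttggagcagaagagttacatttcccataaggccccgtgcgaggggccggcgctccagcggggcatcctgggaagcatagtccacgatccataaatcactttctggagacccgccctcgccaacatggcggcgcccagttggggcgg
In UBE2J1 the capitals are an antioxidant element, 232 bases before the start, that overlaps an ATF/CREB core at 229 bases, both on the opposite strand. UBE2T holds an ATF/CREB core at 218 bases and CCAAT boxes at 124 and 73 bases before the start. USP36 holds an ATF/CREB core at 166 bases and an E-box at 27 bases before the start, and a further USP36 window in RefSeq holds none of the motifs. USP40 holds none in this window.

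Of the 57 E2, E3, E4 and USP genes, 47 have a promoter in the RefSeq table, 33 of them higher and 14 lower. TGACGT was present in 9 of the 33 higher genes and in 2 of the 14 lower ones, against 9.64% of all 27305 genes with a promoter and 14.4% of the 6057 of them that are in the deposited table. The holders are UBE2D3, UBE2J1, UBE2L3, UBE2O, UBE2S, UBE2V1, UBE4A, USP8 and USP36 among the higher genes, and UBE2T and USP2 among the lower. TGACNNNGC was present in 4 higher and 3 lower genes, against 16.1% of all genes and 19.8% of those in the deposited table. CACGTG was present in 1 and 2 (8.77% and 12.7%) and CCAAT in 10 and 6 (39.7% and 43.1%). Genes with several windows counted once if any held the motif. A match describes letters and not binding.

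E2s that pass ubiquitin to many partners were mostly higher, with 5 of the 6 members in the table, near the 80.0% of the whole E2 group. UBE2D3, a broadly acting E2 with the highest mean normalized count of the E2 group (5781, a value that also grows with transcript length), was at 0.46 (SE 0.06, adjusted p 2.63e-13 per the authors' deposited table). Its close relatives went both ways, with UBE2D1 at 0.48 (SE 0.13) and UBE2D2 at −0.33 (SE 0.08) per the authors' deposited table. Similar sequences among these paralogs, and their pseudogenes, could share reads, which makes the division among them uncertain. UBE2W, which ubiquitinates protein N-termini, was at 0.70 (SE 0.16, adjusted p 1.75e-05, mean normalized count 528 per the authors' deposited table). UBE2E1 stood at 0.40 and UBE2L3, the partner of HECT and RING-between-RING ligases such as parkin, at 0.23 per the authors' deposited table.

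E2s that build chains of a given linkage moved little or in opposite directions. Of the Lys48 builders, which mark proteins for the proteasome, UBE2G1 was at 0.38 and UBE2K at 0.22, while UBE2R2, a partner of cullin ligases, was at −0.18 per the authors' deposited table. The inactive E2 variants that direct Lys63 chains split: UBE2V1 stood at 0.84 (SE 0.22, adjusted p 0.000192, mean normalized count 208) and UBE2V2 at −0.47 (SE 0.13, adjusted p 0.000589, mean normalized count 676) per the authors' deposited table. UBE2N, the active partner of both, has no value here. The UBE2V1 locus lies inside a readthrough gene with its neighbour TMEM189 in GENCODE 29, so its reads may be divided. TMEM189 itself was at 0.30 (SE 0.09) per the authors' deposited table.

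ER-linked E2 function was represented by UBE2J1, and the listed E2 partners in ER-associated degradation that have a value were all higher. Of 10 listed partners 8 are in the authors' deposited table, with a median log2 fold change of 0.52. Over all genes, 43.6% of those tested are in the table and 51.5% of table genes were higher. DERL1, a channel component for misfolded proteins, was at 1.47 (SE 0.10), the ligase SYVN1 at 1.27 (SE 0.07) and DERL2 at 1.17 (SE 0.12) per the authors' deposited table. UBE2G2 and UBE2J2, the other E2s of that route, have no value here.

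The E2s of DNA repair and the cell cycle diverged. UBE2B, a human Rad6 homolog that works with RAD18, was at 0.63 (SE 0.10, adjusted p 4.00e-10) at a mean normalized count of 1203 per the authors' deposited table, and RAD18 was at 0.36. UBE2A, listed for the same role, has no value here. UBE2S, which extends Lys11 chains for the anaphase-promoting complex, was at 0.53 (SE 0.09, adjusted p 1.34e-08) at a mean normalized count of 2271 per the authors' deposited table. UBE2T was lower, and so were the 3 listed genes of the Fanconi anaemia pathway. Its ligase FANCL was at −1.02 (SE 0.17) per the authors' deposited table, and the substrates FANCD2 and FANCI were at −1.07 (SE 0.12) and −1.44 (SE 0.11) there. Of the 7 of 9 listed repair partners in the table, 2 were higher and 5 lower, with a median of −0.36. Over all genes, 43.6% of those tested are in the table and 48.5% of table genes were lower.

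Among the E2s of ubiquitin-like proteins, UBE2M, the main E2 for NEDD8, was at 0.69 (SE 0.08, adjusted p 2.33e-15, mean normalized count 1764 per the authors' deposited table). Of 20 listed cullin-ligase core and NEDD8 factors 10 are in the table, beside 43.6% of all tested genes. All 10 were higher, beside 51.5% of table genes, with a median of 0.43. The largest were the NEDD8 ligase subunits DCUN1D2 at 1.25 (SE 0.17) and DCUN1D3 at 0.93 (SE 0.11), and the RING subunit RNF7 at 0.91 (SE 0.12) per the authors' deposited table. SENP8, a protease of NEDD8 that was listed with the SUMO proteases, went the other way at −2.62 (SE 0.77, adjusted p 0.000172) with a mean normalized count of 23.9 per the authors' deposited table. The large and divergent E2s were all higher: UBE2O, a hybrid of E2 and E3, at 0.55 (SE 0.07, adjusted p 1.99e-13, mean normalized count 3565), UBE2Q1 at 0.47 and UBE2Q2 at 0.32 per the authors' deposited table.

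**Figure D2:**
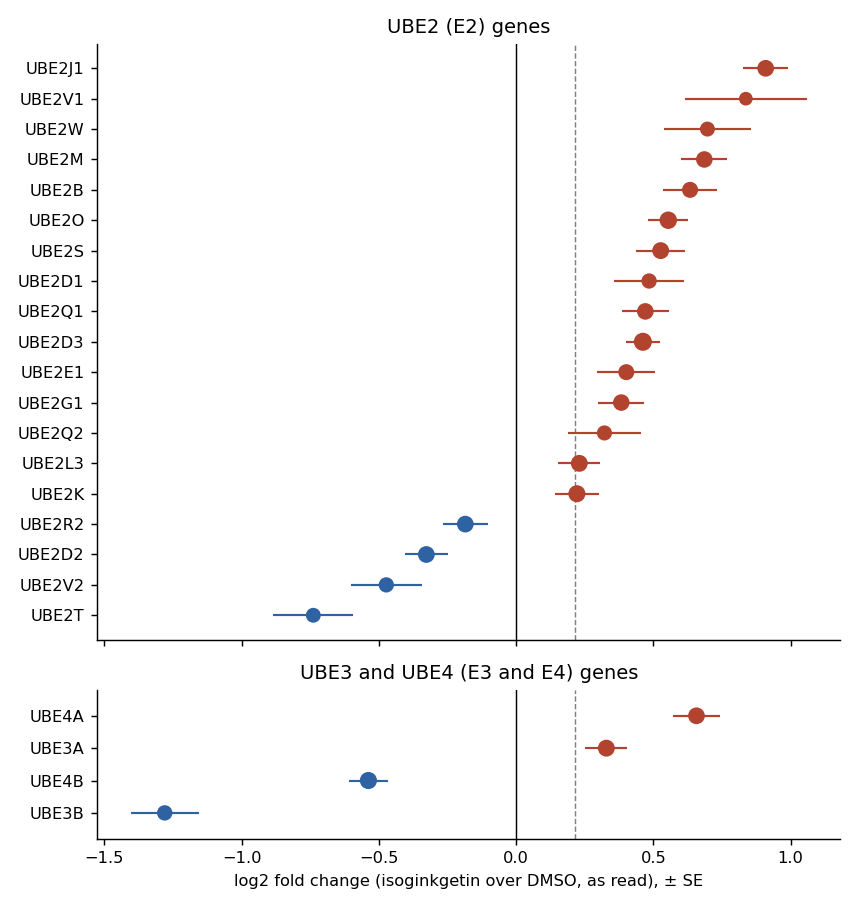
Log2 fold change with its SE for 19 of the 20 UBE2 genes (upper panel) and the 4 UBE3 and UBE4 genes (lower panel), ordered by value. Point area grows with the mean normalized count, red is higher and blue lower in isoginkgetin as read, and the dashed line is the table median of 0.21. UBE2J1 is at the top with 0.91 and UBE2T at the bottom with −0.74, while UBE3B lies further out at −1.28.

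The UBE names that are not E2s split evenly. UBE3A, the HECT ligase lost in Angelman syndrome, was at 0.33 (SE 0.08) and its relative UBE3B at −1.28 (SE 0.12), 2.43-fold lower, per the authors' deposited table. UBE4A and UBE4B, the chain-elongating U-box enzymes, stood at 0.66 (SE 0.09) and −0.54 (SE 0.07) per the authors' deposited table. Among the pseudogene names UBE2FP1 was at 2.93 (SE 0.54) with a mean normalized count of 48.6, and UBE2V1P1 at 2.86 (SE 2.12) with 6.78 per the authors' deposited table. UBE2Q2P6 stood at 0.59 (SE 0.09) with a mean normalized count of 1920 per the authors' deposited table. Reads of such copies and their parent genes may be shared. USP6NL was at −0.17 (SE 0.06) per the authors' deposited table.

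USPs of the nucleolus, RNA processing and the cell cycle were higher in all 4 cases, beside 72.7% of the whole USP group, with a median of 0.79. After USP36 the next was USP42, a p53 deubiquitinase, at 1.27 (SE 0.12, adjusted p 7.46e-27, mean normalized count 867 per the authors' deposited table). USP42 was listed here and not with the USPs of DNA repair and p53, and the median of 0.79 depends on that placement. USP39, a splicing factor without protease activity, was at 0.31 (SE 0.08) and USP37, which stabilises cyclin A, at 0.27 (SE 0.11) per the authors' deposited table.

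USPs of DNA repair and p53 were higher in 4 of 5 cases, beside 72.7% of the whole USP group, with a median of 0.30 over the 5. USP7, which acts on MDM2 and p53 and had the highest mean normalized count of the USP group (9683), was at 0.27 (SE 0.05, adjusted p 3.61e-06 per the authors' deposited table). Its substrate MDM2 was at 1.05 (SE 0.06) per the authors' deposited table. USP47, which acts on DNA polymerase beta, stood at 0.73 (SE 0.09), USP10, the partner of the stress granule protein G3BP1, at 0.45 (SE 0.07), and USP28, a regulator of MYC, at −0.32 (SE 0.12) per the authors' deposited table. USP1, which acts on FANCD2 and PCNA, was at 0.30 (SE 0.07), with USP12 at 0.29 (SE 0.10) and USP46 at 0.30 (SE 0.12) per the authors' deposited table. These 3 proteases share the activating subunit WDR48, which was at 0.64 (SE 0.10) per the authors' deposited table.

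Histone-directed USPs were higher in 5 of 6 cases, beside 72.7% of the whole USP group. USP16, which removes ubiquitin from histone H2A, was at 0.83 (SE 0.09), USP49, which acts on H2B, at 0.62 (SE 0.19) and USP3 at 0.47 (SE 0.12) per the authors' deposited table. USP21 and USP48 stood at 0.39 and 0.31 per the authors' deposited table. The exception was USP27X, a relative of the SAGA subunit USP22, at −0.98 (SE 0.25, adjusted p 7.29e-05, mean normalized count 176 per the authors' deposited table). ENY2, a subunit of the SAGA deubiquitinase module, was at 0.44 (SE 0.12) per the authors' deposited table, and USP22 has no value here.

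Of the USPs of endosomes, mitochondria and the ER 3 of 4 were lower, beside 27.3% of the whole USP group. USP20 and USP33, relatives known to bind the VHL protein, were at −0.96 (SE 0.19, adjusted p 4.83e-07, mean normalized count 319) and −0.26 (SE 0.11) per the authors' deposited table. USP30, which opposes parkin on the mitochondrial surface, stood at −0.73 (SE 0.23) with a mean normalized count of 211 per the authors' deposited table. USP8, an endosomal protease that acts on growth factor receptors, was the exception at 0.47 (SE 0.09) per the authors' deposited table. Its STAM partners were also higher, STAM2 at 0.35 and STAM at 0.22 per the authors' deposited table.

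USPs of signalling were higher in 6 of 8 cases, near the 72.7% of the whole USP group. USP15, a regulator of SMAD signalling, was at 0.84 (SE 0.10, adjusted p 1.66e-16, mean normalized count 1210), and its paralog USP4 at 0.24 (SE 0.11) per the authors' deposited table. USP18, which removes ISG15, stood at 0.69 (SE 0.17) and ISG15 itself at 0.63 (SE 0.13) per the authors' deposited table, while UBA7, the E1 for ISG15, was at −1.59 (SE 0.28). USP35 was at 0.47 (SE 0.15) on the scale of the authors' deposited table. USP34, a very large protease of Wnt signalling, was at −0.58 (SE 0.07), and USP2, which stabilises cyclin D1, at −0.45 (SE 0.15) per the authors' deposited table.

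The lower end of the USP group besides USP40 was USP13, a protease related to USP5, at −1.29 (SE 0.11, adjusted p 7.16e-32, mean normalized count 1082 per the authors' deposited table). USP14 and USP5, which act at the proteasome and on free chains, have no value here. Of the remaining USPs, USP38 was at 0.94 (SE 0.13, adjusted p 3.85e-13, mean normalized count 712), USP53 at 0.38 and USP31 at 0.35 per the authors' deposited table. USP50, at 1.21 (SE 0.62) with a mean normalized count of only 34.2 per the authors' deposited table, overlaps USP8 on the opposite strand in GENCODE 29, and the libraries carry no strand.

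**Figure D3:**
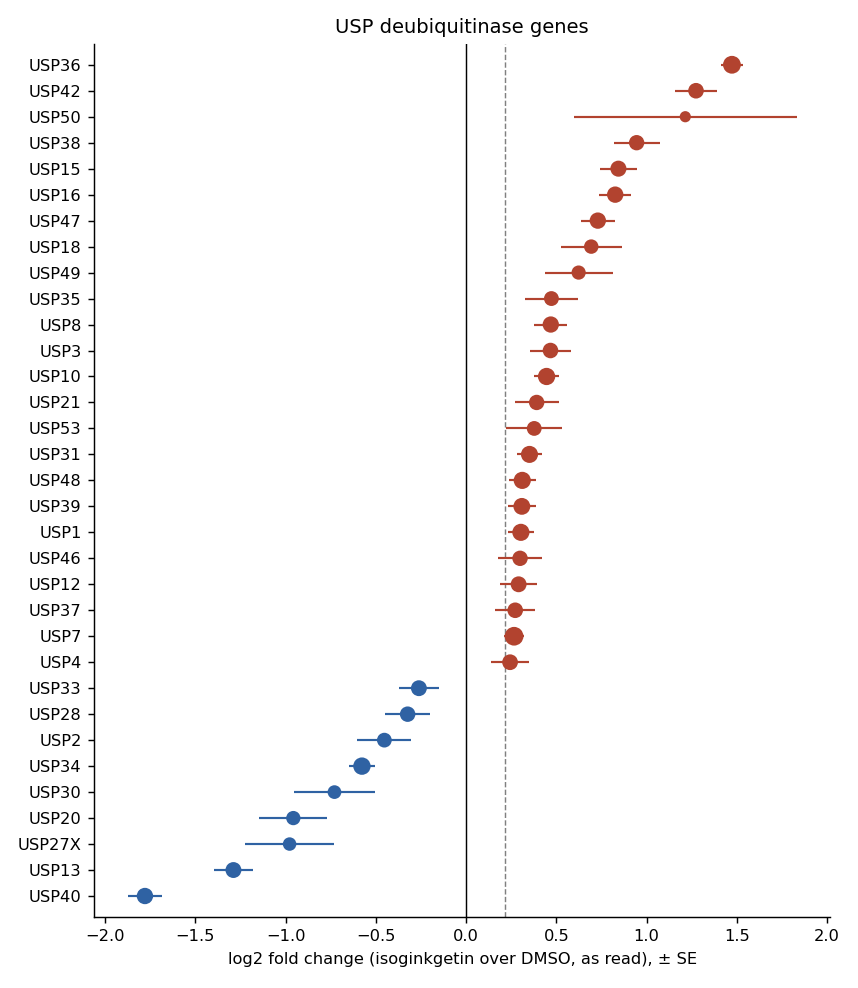
Log2 fold change with its SE for the 33 USP genes, ordered by value, with colours, point area and the dashed line of the table median (0.21) as for the E2 genes. USP36 at 1.47, USP42 at 1.27 and USP50 at 1.21 are at the top and USP40 at −1.78 and USP13 at −1.29 at the bottom, while 15 genes lie between 0.24 and 0.48.

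Most E2 genes are shorter than the USP genes, and length also goes with the direction of change in the whole table. The median coding length, from GENCODE 29, was 576 bases in the E2 group and 2826 bases in the USP group, against 1473 bases over the 7314 protein-coding table genes with a length. Median exon numbers were 6.5 and 16 for E2 and USP transcripts. The share of higher genes was 71.3% in the shortest of 10 equal bins of those 7314 genes and 37.6% in the longest. Of the 542 other genes inside the interquartile range of E2 coding lengths (496.5 to 678 bases) 61.6% were higher. Adding the interquartile range of E2 mean normalized counts left 191 genes, of which 69.6% were higher, beside 80.0% of the E2 group. For USPs the same ranges gave 45.5% of 2002 genes by length (1695 to 3231 bases) and 46.6% of 698 genes by length and level, beside 72.7% of the USP group. Within the USP group 13 of the 16 longer genes were higher, against 11 of the 17 with coding lengths at or under the median. Split by exon number, the order was the other way. Of the USP genes with 16 exons or fewer 14 of 17 were higher, against 10 of 16 with more. The part of length in the balance of either group was not tested.

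**Figure D4:**
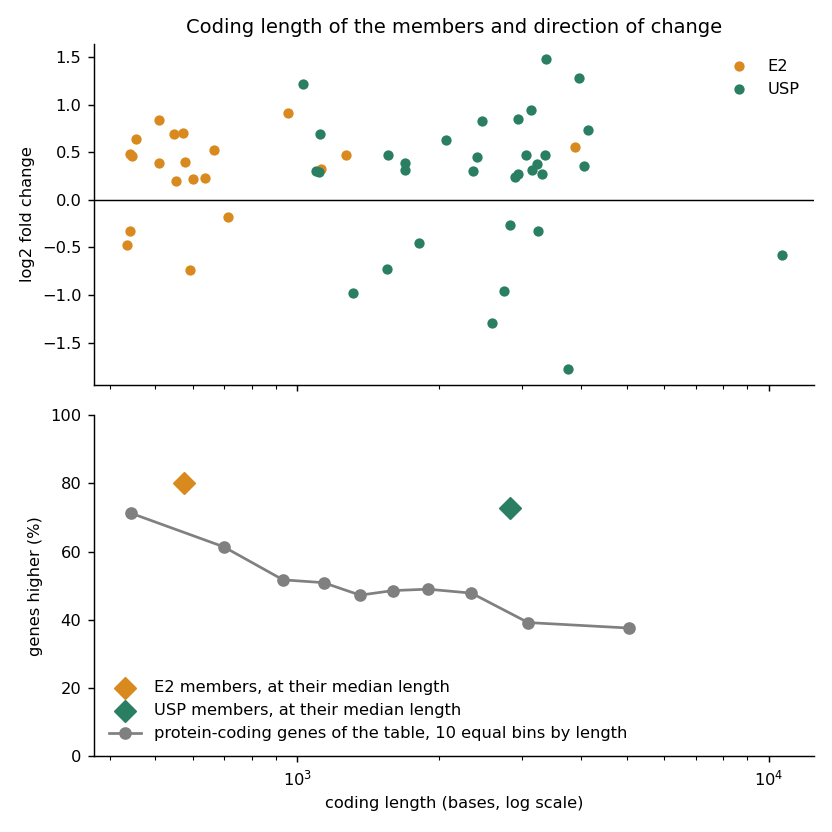
Upper panel, log2 fold change of each E2 and USP gene against its coding length in bases (log scale). Lower panel, share of higher genes (%) in 10 equal bins of the protein-coding table genes by coding length, each placed at its median length, with the E2 (80.0%) and USP (72.7%) groups as diamonds. The grey line declines from 71.3% to 37.6%, and the USP diamond lies well above the bins of like length.

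Most genes of the other ubiquitin pathway lists were higher too. By the authors' deposited table, which holds 97 of the 170 listed genes, 67 (69.1%) were higher and the median was 0.35, beside 51.5% higher and 0.21 over all its genes. The lists differed in their counts. All 4 ubiquitin genes were higher, led by RPS27A at 0.45 (SE 0.05) per the authors' deposited table. Of 34 listed deubiquitinases of other families 17 are in the table, 14 higher and 3 lower, with a median of 0.45. Among them the OTU proteases OTUD6B at 1.19 (SE 0.20) and VCPIP1, a partner of the VCP segregase, at 0.97 (SE 0.11) were the largest, and the proteasome subunit PSMD14 was at 0.77 (SE 0.07) per the authors' deposited table. The USP-fold genes without such a symbol went apart, USPL1 at 1.15 (SE 0.13), the tumour suppressor CYLD at 0.61 (SE 0.16) and PAN2, a subunit of an RNA deadenylase, at −1.61 (SE 0.14) per the authors' deposited table.

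E3 ligases that take ubiquitin onto their own cysteine had more lower than higher genes, in small lists, beside 48.5% lower over the table. Of 24 HECT ligases listed 12 have a value, and 8 of these were lower (median −0.31). Of 14 RING-between-RING ligases 9 have a value, and 6 were lower (median −0.29). Coding lengths vary among these ligases, with 3957 bases for NEDD4 and 876 bases for RNF144A. In the longest of the 10 length bins 37.6% of genes were higher, and the part of length in these counts was not tested. NEDD4 was at −0.93 (SE 0.13), HUWE1 at −0.46 (SE 0.05) and RNF144A at −1.44 (SE 0.10) per the authors' deposited table, whereas ARIH2, a partner of neddylated cullins, was at 0.81 (SE 0.07). Of 8 listed genes with an E2 or E2-like fold but no UBE symbol, 5 have a value and 4 of these were lower. TSG101, a subunit of the endosomal sorting complex, was at −1.02 (SE 0.11) and its relative UEVLD at −1.42 (SE 0.21), against 0.73 (SE 0.11) for ATG3, the E2-like enzyme of LC3, per the authors' deposited table. SUMO ligases and proteases stood at 4 higher and 2 lower of 13 listed, by the authors' deposited table.

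**Figure D5:**
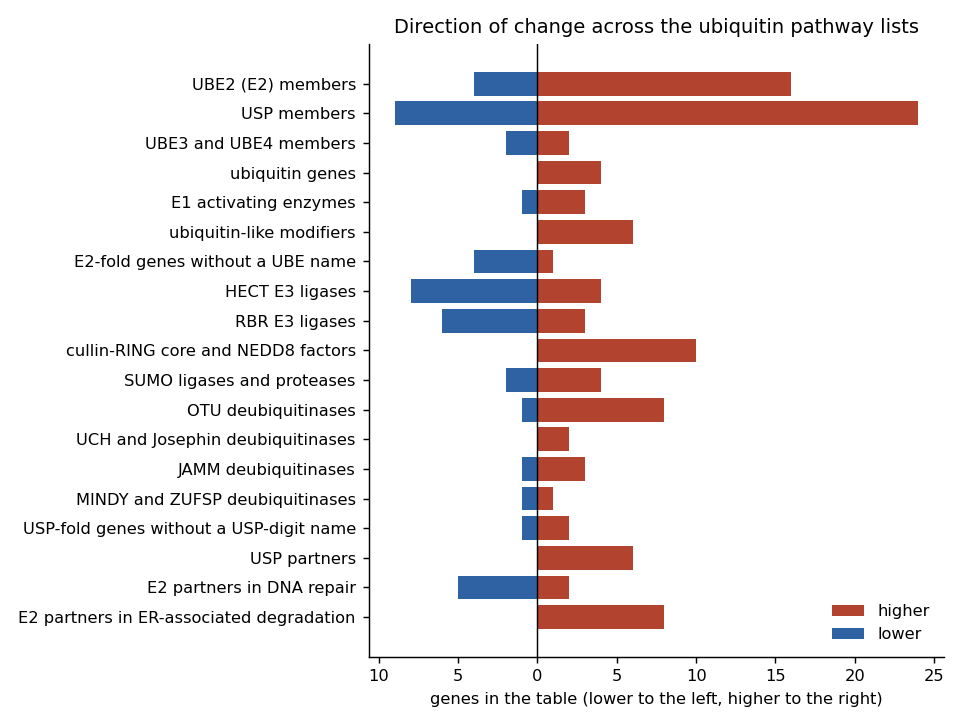
Number of genes higher (red, right) and lower (blue, left) per the authors' deposited table for the E2, USP, UBE3 and UBE4 members and for 16 lists of the ubiquitin pathway. The E2 members show 16 higher and 4 lower, the USP members 24 and 9, and the HECT ligases 4 and 8.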

How the data were processed

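Polyadenylated RNA of 4 HepG2 libraries was sequenced, 2 from isoginkgetin and 2 from DMSO, with groups taken from the sample titles. STAR 2.7.0 and featureCounts are named in the submitters' processing notes, as are mm10 and hg19, with no role given for either build. The authors deposited 1 results table. Its mean normalized count is read, per the file headers, as a signal averaged over libraries. Per the file headers the authors' log2 fold change and SE are on the log2 scale. The change over its SE was 0.757 times (median) the z-value that its p-value stands for at mean normalized counts under 100, against 0.990 times at 1000 or more, so changes of genes with few counts may be shrunken towards 0. Together, the p-value and the adjusted p-value that the authors deposited imply 20024 genes tested. Depth per library is unknown, so the SE alone gives the precision. The planned count model could not be run without counts per library.

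Members were selected by symbol, with biotypes from RefSeq, and counted by direction (Python 3.11.15, pandas 2.3.3, scipy 1.17.1). Coding lengths are the longest per gene in GENCODE 29, to which 7822 table genes matched by symbol, and all 53 E2 and USP genes have one. SE and adjusted p are given for the 8 largest changes of each group (mean normalized count 100 or more) and for its member with the highest mean normalized count, with up to 3 genes of each pathway list, and further values follow each gene's role. A few genes counted in their groups are not reported by name here. Counting functions were tested on simulated data. Members and lists were chosen with earlier results of these data known.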

Additional observations from a re-analysis of the deposited data

How the results depend on the processing

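The balance of each group kept its direction under the 7 alternatives tried. These were a mean normalized count of at least 100, an adjusted p under 0.001, Bonferroni, changes of 1.5-fold or 2-fold, centring on the table's median and all names of the rule. The share of higher genes ran from 75% to 87.5% in the E2 group and from 60% to 75% in the USP group. At 2-fold no E2 gene was left, so 6 of the alternatives give an E2 share. The USP share of 60% at 2-fold rests on only 5 genes, 3 of them higher. The higher genes are USP36, USP42 and USP50, the last with a mean normalized count of only 34.2, and the lower genes are USP40 and USP13. The difference between the shares, E2 minus USP, ran from 2.27 to 19.0 percentage points. The smallest came from 15 of 20 E2 and 24 of 33 USP genes after centring. The largest came from only 5 of 6 E2 and 9 of 14 USP genes at 1.5-fold or more. The alternatives draw on overlapping genes, and whether the shares differ was not tested. The difference of the medians, 0.12, turned to −0.020 at 1.5-fold or more. Centring lowered every value by 0.21, and 60 of 61 members kept their sign, 54 of them moving by more than their SE. The centred medians were 0.22 for the E2 group and 0.098 for the USP group. No paired analysis was possible because the deposited table holds no values per library, and for the same reason neither the runs without each replicate nor another normalization were run. Genes that missed the threshold have no value, so the shares describe changed genes only.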

Other observations

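UFM1, a ubiquitin-like protein attached to ribosomes at the ER, was at 1.93 (SE 0.09, adjusted p 1.90e-101) per the authors' deposited table. UFC1, its E2, has no value here. Of the 10 listed ubiquitin-like modifiers 6 are in the table, beside 43.6% of all tested genes. All 6 were higher, beside 51.5% of table genes, with a median of 0.63. Among them FAU was at 0.74 (SE 0.06) per the authors' deposited table. Of 10 listed E1 genes 4 are in the table, among them UBA6 at 0.52 (SE 0.08) and UBA2, a subunit of the SUMO E1, at 0.21 (SE 0.06) per the authors' deposited table.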
